A study of Penaeus merguiensis with 6 samples.

Results

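Among the 57303 assembled genes measured in the hepatopancreas of the banana shrimp Penaeus (Fenneropenaeus) merguiensis, 292 kept a narrow range of expression across every library, control and cadmium alike. They were chosen by level and range: a mean of at least 50 and below 1000 FPKM over the 6 libraries, a value above 0 in all 6, and a highest value less than 1.5 times the lowest. FPKM counts sequenced fragments relative to the length of a transcript and to the mapped fragments of its library. The 3 control libraries came from shrimp held without added cadmium (0 mg/L in the design text) and the 3 cadmium libraries from shrimp in 0.5 mg/L cadmium, both for 72 hours. The design text gives that concentration as the median lethal one at 72 hours, with cadmium supplied as cadmium chloride. The labels give the tissue and the group of each library, but not the tank, the number of animals or their age, so the spread between libraries may be partly technical. Because all 6 values chose the genes, the narrow range is a choice and not a finding, and the values of these genes are given as a description with no test.

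The hepatopancreas is the digestive gland of crustaceans. It secretes digestive enzymes, absorbs and stores nutrients, and takes up and binds metals, in part through small cysteine-rich metallothioneins. Genes with steady expression across a treatment are used in quantitative PCR as reference genes, against which changes of other genes are read, and commonly used ones encode actin, elongation factors or ribosomal proteins. The assembled genes carry IDs without names here, so none of the 292 could be matched to such a gene (0 IDs were paired with a name), nor could markers of the tissue be checked. The sources do not explain the parts of the IDs. Here, genes with the same TR number are called a TR group, and those that also share the c number a component. These are names for groups of IDs only.

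Steady genes were a minority of the genes at their level. In the range of 50 to 1000 FPKM there were 1346 genes, of which 50 were at 0 in at least 1 library. Of the 1296 others, the 292 steady genes made up 22.5%. The median ratio of the highest to the lowest library was 1.35 in the steady genes and 2.50 in the 1004 other genes, of which 672 had a ratio of at least 2 and 130 of at least 10. The steady genes spanned the whole range, with means from 50.03 to 979.7 FPKM and a median of 126 FPKM. By level, the ratio was below 1.5 in 20.4% of 624 genes at 50 to 100 FPKM, in 18.5% of 335 at 100 to 200 FPKM, in 30.6% of 222 at 200 to 500 FPKM and in 30.4% of 115 at 500 to 1000 FPKM. In the neighbouring ranges it was below 1.5 in 19.2% of 1549 genes at 20 to 50 FPKM and in 24.3% of 218 genes at 1000 FPKM or more. At 1 to 5 FPKM it was below 1.5 in 6.72% of 8245 genes.

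**Figure D1:**
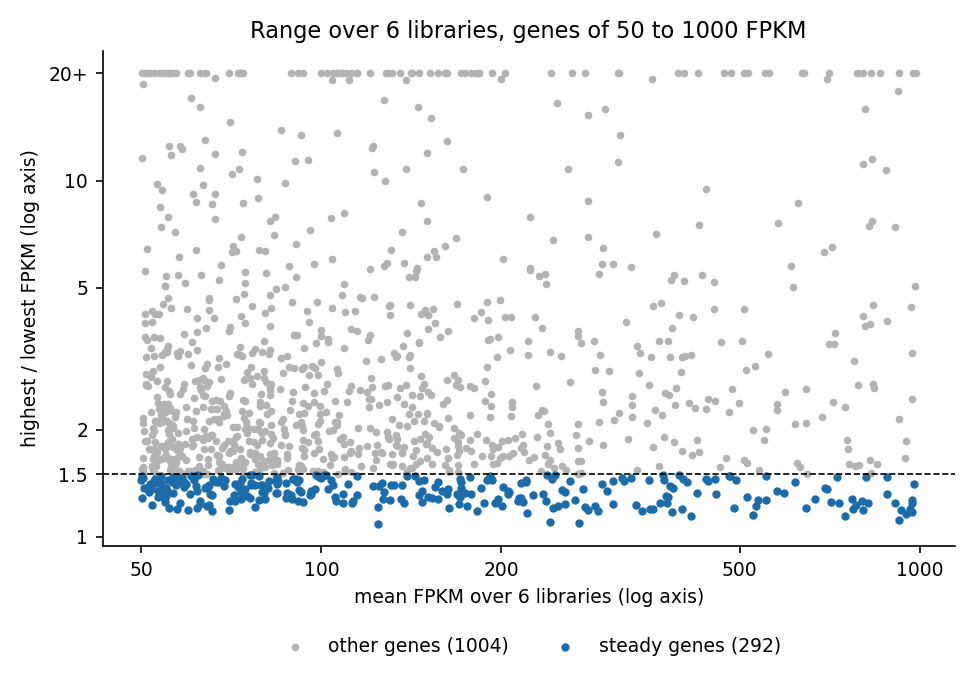
Each point is an assembled gene with a mean of 50 to 1000 FPKM and a value above 0 in all 6 libraries, with its mean FPKM (x, log axis) and the ratio of its highest to its lowest library (y, log axis, ratios above 20 drawn at 20). The 292 steady genes lie below the dashed line at 1.5 at every level, and the 1004 other genes above it.

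The range within each group accounted for most of the exclusions. Over the 3 controls alone, 600 of the 1296 genes stayed within 1.5 times, and over the 3 cadmium libraries alone 649 did. The 2 sets shared 414 genes, which were 69.0% of the first and 63.8% of the second. Of these 414, 292 also stayed within 1.5 times over all 6 libraries, and 122 did not. In those 122 genes, each steady within both groups, the cadmium mean as deposited was higher in 85 and lower in 37. This direction was not examined under other scalings and may depend on them. In 62 of the 122 (50.8%) the groups did not overlap, against 15.1% of all tested genes. None of the 122 passed the test of cadmium against control described below (limma, Benjamini-Hochberg adjusted), and 35 (28.7%) were at an unadjusted p under 0.05, against 9.53% of all tested genes. Being narrow within each group and wider over both favours separated groups, so these shares follow from how the 122 were picked.

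The steadiest gene by range was TR3227_c0_g1. It read 130.33, 120.65 and 128.15 FPKM in controls 1 to 3 and 123.01, 122.95 and 119.64 FPKM in cadmium 1 to 3. Its highest library was 1.09 times its lowest, and its groups overlapped as deposited, where the control mean was 126.4 ± 5.08 FPKM and the cadmium mean 121.9 ± 1.93 FPKM (SD, n = 3 each). Under each of the 3 other scalings its cadmium libraries all lay below its controls, with ratios of means of 0.845 (upper quartile), 0.884 (median of ratios) and 0.854 (quantile). The next, TR1521_c0_g1, read 267.52, 280.69 and 259.76 FPKM in controls and 276.87, 276.84 and 257.14 FPKM with cadmium, so that each group held both a high and a low library. TR3858_c0_g1 read 233.17, 246.47 and 239.06 FPKM in controls and 244.55, 253.88 and 231.04 FPKM with cadmium. These 3 were the steady genes with a ratio below 1.1, while 25 had one below 1.2, 104 below 1.3 and 189 below 1.4.

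The next narrowest ranges belonged to more abundant genes. TR858_c4_g2 read 874.84, 945.26 and 903.51 FPKM in controls and 972.72, 964.46 and 879.91 FPKM with cadmium, a ratio of 1.11. TR6592_c0_g1 read 709.48, 774 and 732.12 FPKM in controls and 803.11, 781.86 and 702.36 FPKM with cadmium, a ratio of 1.14. In both genes cadmium 1 was the highest library and cadmium 2 the next, while the lowest was control 1 in TR858_c4_g2 and cadmium 3 in TR6592_c0_g1. All 5 of these genes kept a ratio below 1.5 after upper-quartile scaling, median-of-ratios scaling and quantile normalization.

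The 5 most abundant steady genes lay close together in level, between 961.8 and 979.7 FPKM on average, and differed in pattern. TR5566_c0_g1 read 775.16, 998.61 and 1042 FPKM in controls and 1092.26, 1043.8 and 926.26 FPKM with cadmium. Control 1 stood lowest, below every other library, and the gene ranked 197th of 292 by range, with a ratio of 1.41. TR2146_c0_g1 read 974.06, 933.37 and 919.65 FPKM in controls and 1114.69, 989.99 and 892.96 FPKM with cadmium, so its highest and lowest libraries were both from the cadmium group. TR1009_c0_g1 read 922.32, 966.39 and 934.6 FPKM in controls and 1032.97, 1060.62 and 900.24 FPKM with cadmium, with cadmium 1 and cadmium 2 above every control and cadmium 3 below every control. TR3126_c0_g1 read 919.62, 941.81 and 1090.93 FPKM in controls and 926.05, 1078.55 and 858.12 FPKM with cadmium, with its highest value in control 3. TR11733_c0_g1 read 872.09, 945.37 and 954.38 FPKM in controls and 1032.72, 1045.51 and 920.67 FPKM with cadmium, and its lowest was control 1. In each of the 5 genes the groups overlapped, as deposited and under the 3 scalings. TR3126_c0_g1 left the steady genes after quantile normalization, with a ratio of 1.65, and the other 4 kept a ratio below 1.5 under the 3 scalings.

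**Figure D2:**
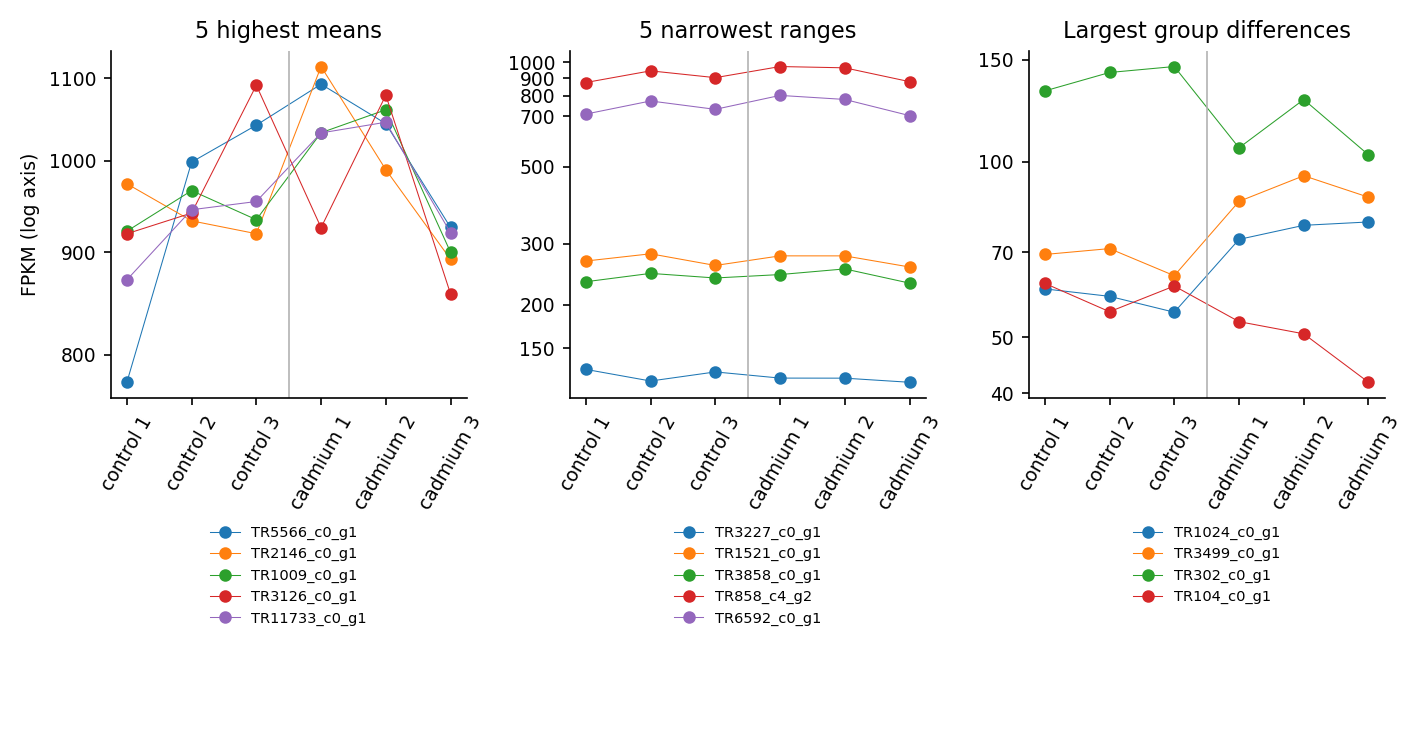
FPKM (log axis, a separate scale in each panel) in each of the 6 libraries for the 5 steady genes with the highest means, the 5 with the narrowest ranges and the 4 with the largest group differences, with thin lines joining the values of a gene and no order among libraries of a group. TR3227_c0_g1 stays between 119.64 and 130.33 FPKM, while TR1024_c0_g1 and TR3499_c0_g1 stand higher and TR302_c0_g1 and TR104_c0_g1 lower in all 3 cadmium libraries.

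A second measure of steadiness, which does not depend on how a library is scaled, ranked the genes differently. It is the average SD, over the 6 libraries, of the log2 ratio between a gene and each other steady gene, known as M in the geNorm method for choosing reference genes. M ranged from 0.143 to 0.322 with a median of 0.196 on the log2 scale. The lowest M belonged to TR1009_c0_g1, at 0.143, which ranked 11th by range and was among the 5 most abundant. TR1387_c0_g1 followed with an M of 0.144, and read 388.86, 411.83 and 415.42 FPKM in controls and 440.55, 445.71 and 388.37 FPKM with cadmium. Like TR1009_c0_g1 it was high in cadmium 1 and cadmium 2 and lowest in cadmium 3. TR3339_c0_g1, TR1092_c0_g1 and TR38974_c0_g1 came next, each with an M between 0.145 and 0.146. TR3339_c0_g1 read 375.19, 370.3 and 378.93 FPKM in controls and 419.94, 388.36 and 337.18 FPKM with cadmium, and left the steady genes after quantile normalization (ratio 1.52). TR1092_c0_g1 read 892.95, 949.8 and 916.83 FPKM in controls and 1037.43, 1003.37 and 898.8 FPKM with cadmium. TR38974_c0_g1 read 806.99, 770.63 and 762.92 FPKM in controls and 851.72, 811.69 and 691.67 FPKM with cadmium, with cadmium 3 below every control. The 5 genes with the lowest M and the 5 with the narrowest range shared 0 genes, and TR3227_c0_g1, first by range, ranked 65th by M, with an M of 0.167.

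A low M means that a gene follows the library offsets common to the steady genes, so the pattern of the genes above is part of how they were ranked. Over all 292 genes, relative to each gene's own mean on the log2 scale, the median steady gene stood at 0.12 in cadmium 1 and 0.098 in cadmium 2, at -0.019, -0.055 and -0.035 in controls 1 to 3, and at -0.122 in cadmium 3. In fold terms the median gene was at 1.087, 1.07, 0.987, 0.963, 0.976 and 0.919 times its own mean in the same order of libraries. Cadmium 1 was the highest library in 99 of the 292 genes and cadmium 2 in 87, while cadmium 3 was the highest in 15. Cadmium 3 was the lowest in 131 genes, or 44.9%, against 15.5% of the 1004 other genes of the same level. Cadmium 1 and cadmium 2 were the lowest in 7 and 6 genes. The median deviation of cadmium 3 was 0.111 in the other genes of the same level and -0.023 over all tested genes on the log2(FPKM + 1) scale. Cadmium 1 and cadmium 2 stood above 0 in all 3 sets, at 0.119 and 0.179 in the other genes and 0.143 and 0.065 over all tested genes. The part of library scaling in these offsets was not tested.

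In the values as deposited, the cadmium libraries thus differed among themselves more than the controls did in these genes. This order depended on the scaling. The upper-quartile scaling factors were 0.941, 0.852 and 1.025 in controls 1 to 3 and 1.125, 1.053 and 1.027 in cadmium 1 to 3. The median-of-ratios factors were 0.968, 0.875 and 1.036 in controls 1 to 3 and 1.135, 1.035 and 0.97 in cadmium 1 to 3. Division by either set of factors spreads the median deviations of the controls wider than those of the cadmium libraries. The shares of genes that follow are as deposited and were not examined under other scalings. Both cadmium 1 and cadmium 2 exceeded cadmium 3 in 229 steady genes (78.4%) and in 39.7% of the other genes. In 44 steady genes (15.1%) cadmium 1 and cadmium 2 were above all controls and cadmium 3 below all of them, which held for 3.88% of the other genes. The range was wider among the cadmium libraries than among the controls in 192 of the 292 genes (65.8%), with a median ratio of highest to lowest of 1.247 within cadmium and 1.176 within controls. In the other genes the order was reversed, at 1.64 within cadmium and 1.84 within controls, and 38.6% had the wider range with cadmium. The steady genes were limited by the rule to a narrow range and the others were not, so these shares are descriptions of 2 sets that the same values set apart.

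**Figure D3:**
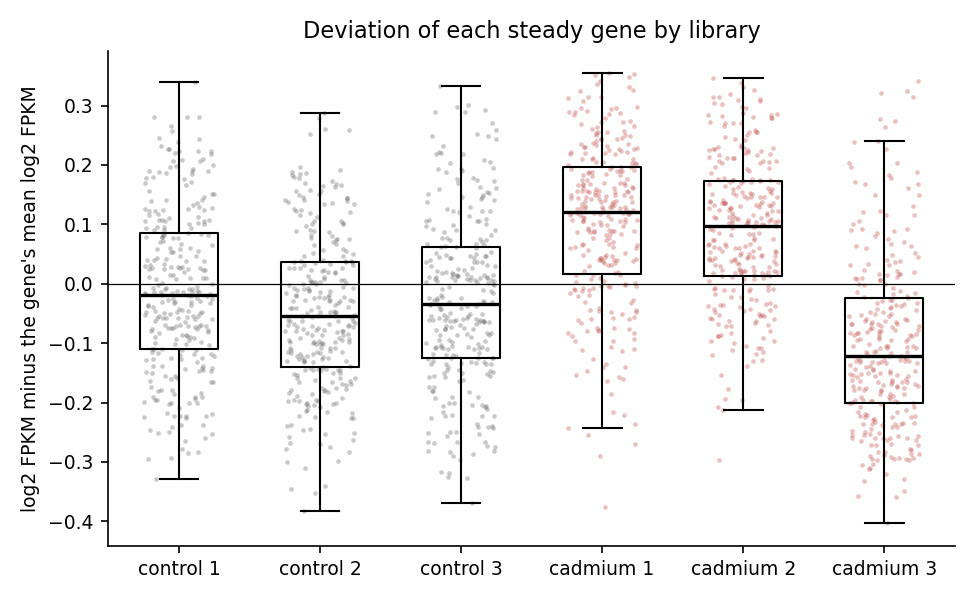
Each point is 1 of the 292 steady genes, with its log2 FPKM in a library minus its own mean log2 FPKM over the 6 libraries (y), for each library (x), controls in grey and cadmium in red. Boxes give the median and quartiles and whiskers reach the farthest value within 1.5 times the box height. The medians are 0.12 in cadmium 1, 0.098 in cadmium 2 and -0.122 in cadmium 3, with the 3 controls between -0.055 and -0.019.

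Pairs of libraries, as deposited, showed the same order. The median absolute log2 difference over the steady genes was smallest between control 1 and control 2 (0.119) and between cadmium 1 and cadmium 2 (0.12). It was largest between cadmium 1 and cadmium 3 (0.255) and between cadmium 2 and cadmium 3 (0.218), both within the cadmium group, and the 9 pairs between groups lay from 0.148 to 0.192. Among the other genes of the same level the smallest difference was also between cadmium 1 and cadmium 2 (0.319), and the largest was between control 3 and cadmium 1 (0.649), a pair between groups. A principal component analysis of the steady genes placed 40.3% of their remaining variance on a first component with loadings of 0.609 in cadmium 1, 0.456 in cadmium 2 and -0.574 in cadmium 3, and of -0.223 to -0.072 in the controls.

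The offsets of the cadmium libraries were not limited to 50 to 1000 FPKM. Genes with a ratio below 1.5 were examined in 9 ranges of level from 1 FPKM upward. In all 9, their median log2 deviation was above 0 in cadmium 1 (0.085 to 0.137) and cadmium 2 (0.013 to 0.11). It was below 0 in cadmium 3 (-0.146 to -0.057). These offsets did not always set the cadmium libraries apart from the controls. Control 2 lay below cadmium 3 at 1 to 5 FPKM (-0.099 against -0.085), 5 to 10 FPKM (-0.135 against -0.108) and 10 to 20 FPKM (-0.124 against -0.109), and not at higher levels. Control 1 lay above cadmium 2 at 1 to 5 FPKM (0.031 against 0.013) and 5 to 10 FPKM (0.062 against 0.047), and not at higher levels. Control 1 differed with level. Its median deviation was 0.062 at 5 to 10 FPKM and 0.051 at 20 to 50 FPKM, against -0.052 at 200 to 500 FPKM and -0.097 at 1000 FPKM or more. Control 2 went the other way, from -0.135 at 5 to 10 FPKM to -0.1 at 50 to 100 FPKM, 0.016 at 200 to 500 FPKM and -0.012 at 1000 FPKM or more. The genes of these ranges were selected by the same kind of rule, so their offsets are bounded in the same way.

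The steady genes held a small and similar part of the total in every library. Their summed FPKM was 63406, 64397 and 64074 in controls 1 to 3 and 70360, 70158 and 61981 in cadmium 1 to 3. Cadmium 1 and cadmium 2 thus stood above all controls and cadmium 3 below them. Of all FPKM in a library the steady genes held 3.50% ± 0.264 in the control group and 3.84% ± 0.329 in the cadmium group (SD, n = 3 each), and the groups overlapped (3.56%, 3.21% and 3.73% against 4.13%, 3.91% and 3.48%). Most of the FPKM of a library lies in genes above a mean of 1000 FPKM. Among genes below that mean, they held 16.4% ± 2.05 in the control group and 15.8% ± 0.937 in the cadmium group (SD, n = 3 each), with the lowest share in control 3, at 14.0%.

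Cadmium and control means of the steady genes were close, as the rule requires. The ratio of the cadmium mean to the control mean ran from 0.7999 to 1.32 with a median of 1.049, and 186 of the 292 genes (63.7%) had means within a factor of 1.1, against 17.5% of the other genes of the same level. The cadmium mean was higher in 203 steady genes and lower in 89 as deposited. This balance depended on the scaling. The median log2 difference of the steady genes, cadmium minus control on the log2(FPKM + 1) scale, was 0.064 as deposited, -0.124 after upper-quartile scaling, -0.062 after median-of-ratios scaling and -0.134 after quantile normalization. The median over all 19862 tested genes moved alike, from 0.106 as deposited to -0.04, 0.009 and -0.044. Relative to that median the steady genes stood at -0.042, -0.085, -0.071 and -0.09. This relative value was 0.02 with no filter on low values, which adds genes near 0 to the median, and 0.011 without control 2.

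**Figure D4:**
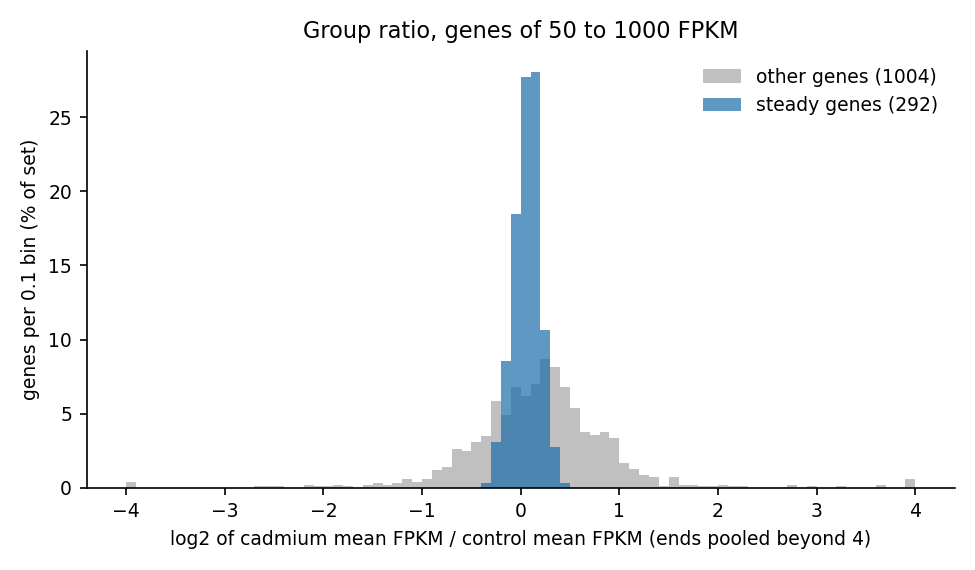
Distribution of the log2 ratio of the cadmium mean to the control mean FPKM (x) for the 292 steady genes and the 1004 other genes of 50 to 1000 FPKM, as a percentage of each set in bins of 0.1 (y). The steady genes run from -0.32 to 0.40, a spread that the rule limits, and the other genes reach farther on both sides.

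The test of cadmium against control over the whole table was limma on log2(FPKM + 1), over genes with at least 1 FPKM in at least 3 libraries. It called 71 of the 19862 genes (10 without cadmium 3 to 43 without cadmium 1, with each library left out in turn) at a Benjamini-Hochberg adjusted p of 0.05, or 0.357% (0.292% higher and 0.0655% lower with cadmium), and 9.53% at an unadjusted p under 0.05. All 292 steady genes entered it, and 0 passed, with 3 at an unadjusted p under 0.05 (limma) and a lowest adjusted p of 0.474. Since the rule used both groups, nothing is read from these counts.

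Groups that do not overlap occurred among the steady genes as well. All 3 cadmium libraries lay above all 3 controls in 25 steady genes and below them in 5, together 10.3%. Of all tested genes 15.1% had groups apart, 10.9% with cadmium higher and 4.17% with cadmium lower. Without cadmium 3 the share of steady genes with groups apart was 40.8%, with 113 higher and 6 lower with cadmium, where all tested genes gave 27.4%. It was 23.3% without control 3, 18.2% without control 2 and 16.4% without cadmium 1, where all tested genes gave 28.5%, 27.0% and 22.0%, since fewer libraries overlap less. The direction followed the scaling. After upper-quartile scaling 1 steady gene was higher and 45 lower (15.8%, against 16.2% of all tested genes, 1355 higher and 1871 lower). After median-of-ratios scaling 4 were higher and 27 lower (10.6%, against 16.1%, 1650 and 1546), and after quantile normalization 2 and 38 (13.7%, against 16.2%, 1381 and 1837). Scaled by the steady genes themselves, which removes their shared offsets, 22 were higher and 16 lower (13.0%, against 15.4%, 1897 and 1171).

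The steady genes with the largest group differences had modest levels. TR1024_c0_g1 read 60.5, 58.74 and 55.16 FPKM in controls and 73.59, 77.81 and 78.85 FPKM with cadmium, a ratio of means of 1.32. TR3499_c0_g1 read 69.33, 70.96 and 63.74 FPKM in controls and 85.54, 94.69 and 86.97 FPKM with cadmium, a ratio of means of 1.31. In both genes the groups did not overlap as deposited or after quantile normalization, and they overlapped after upper-quartile and median-of-ratios scaling, where the ratios of means were 1.155 and 1.21 for TR1024_c0_g1 and 1.143 and 1.197 for TR3499_c0_g1. At the other end, TR302_c0_g1 read 132.46, 142.49 and 145.89 FPKM in controls and 105.75, 128.03 and 102.83 FPKM with cadmium, a ratio of means of 0.7999. TR104_c0_g1 read 61.84, 55.27 and 61.19 FPKM in controls and 53.14, 50.64 and 41.8 FPKM with cadmium, a ratio of means of 0.816. These 2 genes stayed apart by group under all 3 scalings, with ratios of means of 0.701 to 0.733 and 0.697 to 0.746. TR302_c0_g1 exceeded the ratio of 1.5 under all 3, so that it counted as steady in the deposited values alone.

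At the edge of the rule the values of members and non-members were alike. TR23062_c0_g1, just inside, read 76.66, 78.16 and 58.39 FPKM in controls and 81.28, 87.36 and 73.95 FPKM with cadmium, a ratio of 1.496. TR1713_c1_g1 and TR2577_c0_g1, at 1.494 and 1.493, were inside as well. TR4636_c1_g1, just outside, read 56.17, 65.01 and 51.02 FPKM in controls and 67.88, 61.54 and 45.25 FPKM with cadmium, a ratio of 1.5001. TR3151_c0_g1 and TR1796_c0_g1 followed, at 1.5004 and 1.5007. In TR4636_c1_g1 and TR1796_c0_g1 the highest library was cadmium 1 and the lowest cadmium 3, the pair found most often among the steady genes (45 of 292).

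Membership depended on the scaling between libraries more than the number of members did. Upper-quartile scaling gave 299 steady genes, of which 220 were among the 292 (75.3% of the 292 and 73.6% of the 299). Median-of-ratios scaling gave 323 with 243 shared (83.2% and 75.2%), and quantile normalization 274 with 207 shared (70.9% and 75.5%). In all, 182 genes (62.3% of the 292) were steady as deposited and under the 3 scalings. The scaling factors were widest apart for control 2 and cadmium 1, at 0.852 and 1.125 by upper quartile and 0.875 and 1.135 by median of ratios. Scaled by the geometric mean of the steady genes themselves, a setting chosen after the data were seen, the factors ran from 0.932 in cadmium 3 to 1.074 in cadmium 1. That scaling removes offsets that the 292 genes share, so a larger number of steady genes is favoured by how it is made. It gave 350 steady genes, 274 of them among the 292. Over the whole table, 62 genes were past the limma threshold (Benjamini-Hochberg adjusted, 49 higher and 13 lower). With 1 library left out, 317 (without cadmium 2) to 371 (without cadmium 3) genes were steady. A gene's ratio can only stay or fall with fewer libraries, so larger counts follow from that setting.

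**Figure D5:**
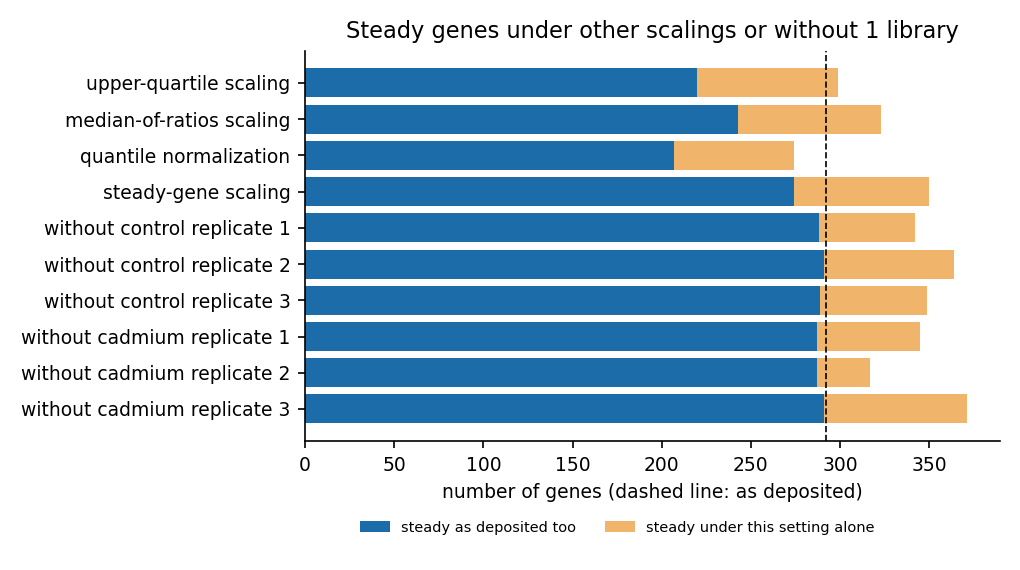
Number of steady genes (x) under each other scaling and with 1 library left out (y), split into genes that are also among the 292 as deposited (blue) and genes steady under that setting but not as deposited (orange), with a dashed line at 292. Quantile normalization keeps the fewest of the 292, at 207, and leaving out cadmium 3 gives the longest bar, at 371.

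The assembly gave most steady genes a component of their own. Another gene of the table shared the component of 49 steady genes (16.8%), against 16.3% of the other genes of the range and 28.5% of all genes. These components held 61 further genes that were not steady members, with a median mean of 1.45 FPKM, and 5 of them reached a mean of 50 FPKM. Of the 44 above 0 in all 6 libraries, 7 had a ratio below 1.5. In 45 of the 47 steady genes with such a companion, the steady gene had the highest mean of the component. Reads of near-identical sequences can be split between genes of a component, so the values of these genes are less certain.

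A few TR groups held several steady genes, and these were picked after their values were seen. The 17 steady genes that shared a TR group with another came from 8 TR groups. TR2823_c0_g1 and TR2823_c0_g2 were the only 2 from a single component. The first read 63.37, 54.4 and 53.37 FPKM in controls and 72.86, 57.34 and 52.77 FPKM with cadmium, and the second 83.19, 70.79 and 79.26 FPKM in controls and 93.82, 92.31 and 86.59 FPKM with cadmium. Both were highest in cadmium 1, and the groups overlapped in the first and not in the second. The TR group with the most, 3, was that of TR858_c4_g2. Its TR858_c0_g1 read 90, 77.85 and 72.47 FPKM in controls and 98.69, 99.12 and 68.41 FPKM with cadmium, and TR858_c3_g1 read 270.68, 275.07 and 230.31 FPKM in controls and 225.1, 256.34 and 235 FPKM with cadmium. Cadmium 1 and cadmium 2 were the 2 highest libraries in TR858_c0_g1 and in TR858_c4_g2, while cadmium 1 was the lowest in TR858_c3_g1. The 3 genes thus did not share 1 pattern.

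The depth behind the values is not recorded in the table. A short assembled gene can reach 50 FPKM with few fragments, so the steady genes were checked for values that a total of 20 or fewer fragments in the 6 libraries could give, as multiples of a common step. With a tolerance of 1.5% 0 of the 292 genes had such a solution, and with 3% 1 had. What 1 fragment is worth was calibrated at 10 to 30 FPKM, where it was 0.975 and 1.005 times that of control 1 in controls 2 and 3 and 0.897, 0.841 and 0.856 times in cadmium 1 to 3, from 28 to 39 genes each. Genes in which 1 fragment is worth more were not covered. The more abundant steady genes would need such a worth to be matched by 20 or fewer fragments. Few combinations of so few fragments keep a ratio below 1.5, so the rule itself left little for this check to find. No conclusion on depth is drawn from it.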

How the data were processed

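The authors deposited 1 table of FPKM values with 2 decimals, with 1 column per library named by the sample titles, per the file headers. No aligner, assembler, quantifier, filter or genome build is given in the sources used here. Per the labels' protocols, total RNA was isolated with TRIzol and libraries were read on a HiSeq platform. Steady genes were selected from the values as deposited. FPKM values were tested over the whole table as log2(FPKM + 1) with limma 3.58.1 (R 4.3.3; lmFit, eBayes with a mean-variance trend, no covariate, two-sided, Benjamini-Hochberg adjustment over 19862 genes with at least 1 FPKM in at least 3 libraries). The fit was checked on simulated data. Upper-quartile factors and quantile normalization used the tested genes, and median-of-ratios factors the genes above 0 in all 6 libraries. Python 3.11.15 with numpy 2.4.6, pandas 2.3.3 and matplotlib 3.10.9 did the rest. Named genes were the 5 highest by mean, 5 narrowest by ratio, 5 lowest by M, 2 at each end of the group ratio, and 3 on each side of the 1.5 ratio. The members and lists were chosen with earlier results of these data known. Alternatives were other scalings, pseudocount 0.1, other filters and ratios, no trend, a replicate block and leaving out each library.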

Additional observations from a re-analysis of the deposited data

How the results depend on the processing

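The number of steady genes, 292, was 61 with the ratio lowered by 0.25, 624 with a ratio below 2 and 589 from a mean of 20 FPKM. With 1 library left out it was 317 to 371, where a gene's ratio can only stay or fall. The 71 of 19862 genes past the limma threshold became 27 of 50883 with no filter on low values and 14 of 9100 with a mean of at least 5 FPKM. Over the same 19862 genes there were 134 without the trend. With 1 library left out there were 10 (without cadmium 3) to 43 (without cadmium 1). A replicate block in the fit left 1 gene of the table, and 0 steady genes, past the threshold. Nothing in the labels ties same-numbered libraries together. Across tested genes, deviations from the group means correlated at 0.014 to 0.037 in same-numbered libraries and at -0.042 to 0.017 in differently numbered ones. Across the steady genes alone, the same-numbered ones correlated at 0.142 to 0.195 and the differently numbered ones at -0.129 to -0.042. Deviations from a group mean sum to 0 within the group, so positive same-numbered values push the others below 0. The steady genes were also chosen by the values of all libraries, so no pairing is read from these correlations. In each of the 16 fits 0 steady genes passed, and 0 to 10 were at an unadjusted p under 0.05 (limma). The 10 came after upper-quartile scaling and after quantile normalization, where 1913 and 1899 of the 19862 tested genes were under 0.05. Since the rule used both groups, nothing is read from these counts. The median log2 difference of the steady genes, 0.064, turned to -0.124 (upper quartile), -0.062 (median of ratios) and -0.134 (quantile), and was 0.021 to 0.136 with 1 library left out. The steady genes with groups apart, 10.3%, were 15.8% after upper-quartile scaling and 13.7% to 40.8% with 1 library left out, where all tested genes gave 15.1%, 16.2% and 22.0% to 28.5%. Their share of FPKM, 3.50% in controls and 3.84% with cadmium, was 16.4% and 15.77% of genes below a mean of 1000 FPKM and 3.388% to 3.647% and 3.697% to 4.021% with 1 library left out. What caused these differences was not tested. Fragment numbers are not recorded, so the precision of single values is unknown.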
